A study of Mus musculus with 39 samples.

Results

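A set of 8 receptor genes with roles in neuroblastoma and in the growth of sympathetic neurons was examined in mouse tumors: Ret, its co-receptors Gfra1, Gfra2 and Gfra3, the neurotrophin receptors Ntrk2, Ntrk3 and Ngfr, and Alk. They were chosen by name, without use of their values, and found by the gene symbol in the deposited count table. Of the 8 genes, 7 had a row among the 20333 genes of that table, and Ret was not analysed here. The tumors came from TH-MYCN mice, which carry a MYCN transgene driven by the tyrosine hydroxylase promoter and so develop neuroblastoma from sympathetic precursors. All groups therefore share the transgene, and every sample is labelled MYCN amplified. The tumors of 20 mice, 5 per group, came from mice on a diet without proline and arginine plus difluoromethylornithine (DFMO), called the combination, from mice given DFMO with the control diet, from mice on the diet without proline and arginine alone, called the diet group, and from mice on the control diet with no drug. DFMO inhibits ornithine decarboxylase, the first enzyme of polyamine synthesis, and proline and arginine are sources of its substrate ornithine. Ribosome footprints, the mRNA fragments that ribosomes protect from nuclease, were sequenced from all 20 tumors, and total RNA from the same extracts for 19 of them. Each tumor carries its mouse number behind the letters PD (combination), D (DFMO), P (diet) or C (control), and control mouse C5840 entered with footprints only. Each tumor is bulk tissue, and the labels used here give neither strain, age nor sex.

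RET is a receptor tyrosine kinase that does not bind its ligands alone. Ligands of the GDNF family first bind a GFRα co-receptor, which is held to the membrane by a lipid anchor: GFRA1 prefers GDNF, GFRA2 neurturin and GFRA3 artemin. NTRK2 (TrkB) is the receptor of BDNF, NTRK3 (TrkC) that of neurotrophin 3, and NGFR (p75) binds every neurotrophin with lower affinity and also acts apart from the Trk kinases. ALK is a receptor kinase of the developing nervous system, bound by the ALKAL ligands, and activating mutations of it occur in human neuroblastoma. In clinical neuroblastoma, BDNF with full-length TrkB is known as a survival pathway of aggressive tumors, while RET signalling takes part in the differentiation of sympathetic neuroblasts.

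Footprint libraries held 2137838 to 12409644 counts, of which the control libraries held 2137838 to 4570191, and RNA libraries held 10005384 to 51538191. A single footprint in the shallowest library was worth 0.468 CPM (the count scaled to the library total, which is TMM-adjusted in all values below), so levels near that value rest on single reads. The RNA libraries of C5696, C5778, C5781 and P5828 stood apart: 8806 to 13387 transcripts were detected in them against at least 14977 in the other 15, and ribosomal protein genes took 39.8 to 51.5% of their counts against at most 33.0%. They include 3 of the 4 control RNA libraries and are called low-complexity below. For each of the 19 RNA libraries, the footprints of the 19 mice were ranked by correlation with it across genes, after centring on the mean of all mice. For the RNA of D135, D5823 and PD5732, the footprints of the same mouse ranked only 8, 10 and 5 (correlations of -0.0439, -0.0893 and 0.171). These 3 RNA libraries are called unmatched. For the low-complexity RNA of C5696 and C5781, the footprints of the same mouse ranked 9 and 8. Where leaving out the low-complexity or the unmatched libraries ended or made an RNA call of a receptor, that is given beside it. RNA calls of other genes, including markers and list genes, were not tested in this way. The labelled cell type, neuroblast, was present in every library: the 7 markers used for it (Phox2a, Hand2, Gata3, Isl1, Th, Dbh and Ddc) all had counts in all 39, and their summed footprints were 1213 to 1769 CPM in the combination, 1070 to 1320.1 CPM with DFMO, 871 to 1169 CPM on the diet and 992 to 1332 CPM in controls. In footprints of the combination against control, Th rose, Ddc fell and the other 5 were not called, where 32.2% of all genes tested were called.

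Counts were made on a single transcript per gene, and for the Trk receptors this matters, since both also produce short forms that lack the kinase. In GENCODE M21 on GRCm38, Ntrk2 lies at chr13:58807697-59133970 on the plus strand, and the counted transcript codes for 821 amino acids. A truncated form of 476 amino acids (Ntrk2-202) shares its first 1393 coding bases, 56.6% of the counted coding sequence, and then splices to a different last exon. The junctions are shown because they mark where a read begins to tell the receptor kinase from the truncated receptor; lower case is the last shared coding sequence and capitals are what each form adds. The own part of the truncated form is shown up to its stop codon.
Ntrk2 counted transcript: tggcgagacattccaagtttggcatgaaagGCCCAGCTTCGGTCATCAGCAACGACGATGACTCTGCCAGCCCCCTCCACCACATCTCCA
Ntrk2 truncated form: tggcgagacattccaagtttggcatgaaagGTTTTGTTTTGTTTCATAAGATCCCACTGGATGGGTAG

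Ntrk3 lies at chr7:78175959-78578408 on the minus strand, with 825 amino acids in the counted transcript. Its truncated form (Ntrk3-202, 612 amino acids) shares the first 1585 coding bases, 64.0% of the counted coding sequence. The first 60 bases that each form adds are in capitals.
Ntrk3 counted transcript: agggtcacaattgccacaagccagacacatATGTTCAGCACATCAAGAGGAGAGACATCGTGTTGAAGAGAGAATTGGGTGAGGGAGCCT
Ntrk3 truncated form: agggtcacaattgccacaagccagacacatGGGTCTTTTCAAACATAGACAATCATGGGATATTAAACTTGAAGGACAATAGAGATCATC

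Reads from the shared stretch could come from either form, so the values of Ntrk2 and Ntrk3 below are those of the gene as counted and not of the kinase alone. The other members lie at chr19:58235604-58455398 (Gfra1, minus strand), chr14:70890120-70979838 (Gfra2, plus), chr11:95568818-95587735 (Ngfr, minus) and chr17:71868972-72603827 (Alk, minus). None of the coding bases of the 7 members overlapped another annotated gene.

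Per length, the 7 receptors were translated at very different levels. Over all 20 tumors, the deposited footprint RPKM (reads per kilobase of coding length, scaled to library depth) averaged 17.6 ± 8.79 for Gfra3 (SD, n = 20), 14.2 ± 3.95 for Alk, 12.0 ± 10.9 for Gfra2, 4.57 ± 5.03 for Ntrk2, 2.57 ± 0.765 for Ntrk3, 1.91 ± 2.36 for Ngfr and 0.748 ± 0.979 for Gfra1. Each gene differed from the next in this order by less than the larger SD of the pair. The order of the co-receptors depended on the group. In combination tumors Gfra2 led them at 25.8 ± 6.59 RPKM, against 11.5 ± 3.21 RPKM for Gfra3 (n = 5). In control tumors the order was the opposite, with Gfra2 at 2.99 ± 0.537 RPKM and Gfra3 at 21.6 ± 12.1 RPKM (n = 5). Among the 12095 genes tested in footprints, the mean RPKM of Gfra2 stood at percentile 71.0 in the combination, 60.7 with DFMO, 24.3 on the diet and 20.7 in controls. Gfra3 stood at percentile 50.6, 65.2, 66.3 and 68.0 in the same order, and Gfra1 stayed below percentile 7 in every group.

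**Figure D1:**
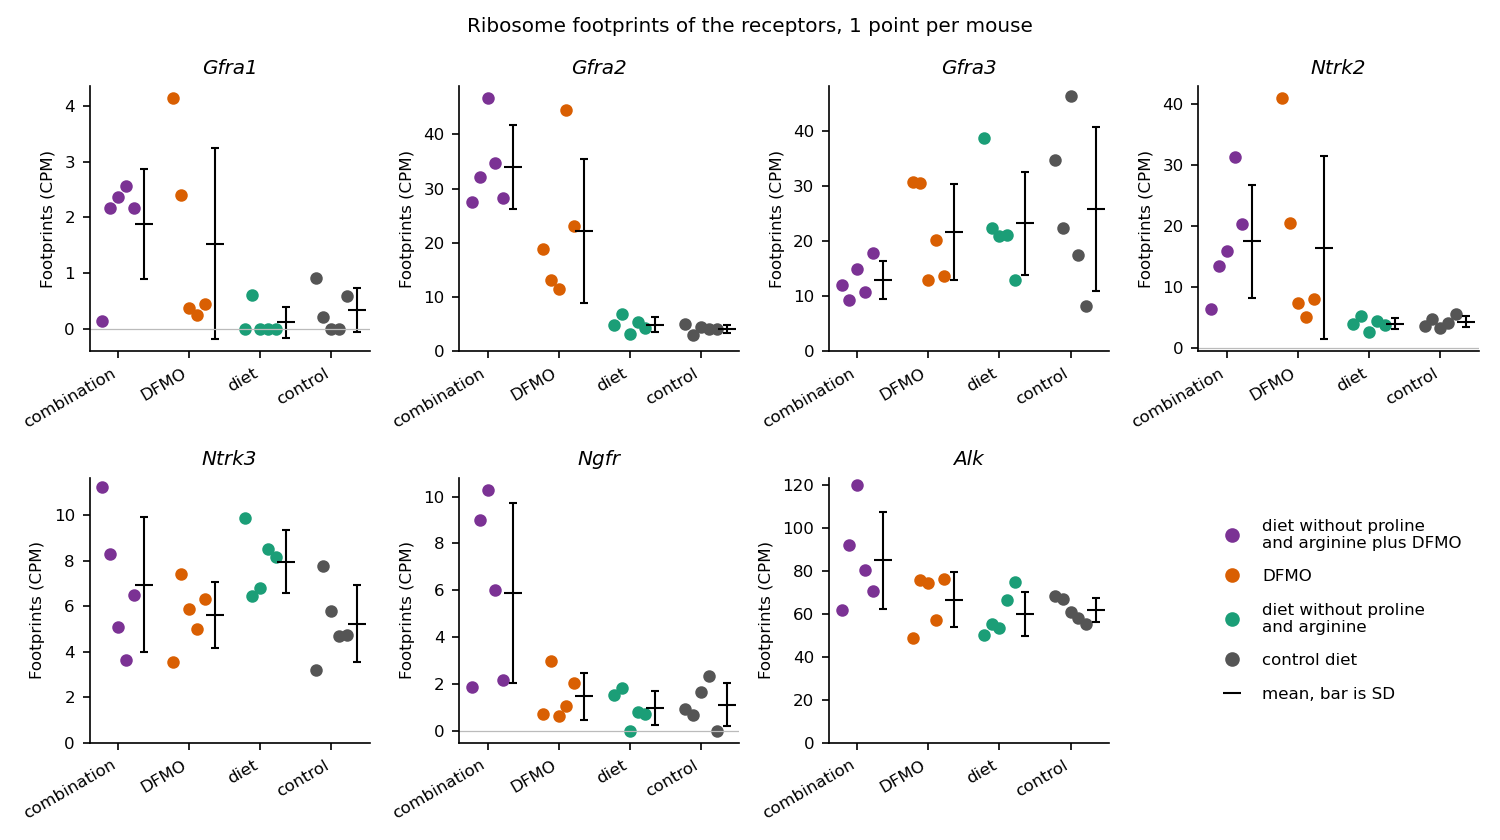
Footprints of each receptor in CPM on a linear axis, 1 point per mouse and 1 panel per gene, with groups from left to right as combination, DFMO, diet and control; the black mark and bar are mean and SD of 5 mice. Gfra2 lies above all controls in every combination and DFMO tumor, with 11.5 CPM as the lowest of these and 5.02 CPM as the highest control, while Ntrk3 overlaps in all groups.

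Tests used edgeR on the counts, with an adjusted p under 0.05 as a call, and log2 changes are given ± SE. A bulk tumor cannot tell fewer cells of a type from less RNA per cell. In footprints, all 7 receptors with a row passed the filter on low counts. Gfra1 did so only through tumors with DFMO, having at most 2 footprints in a control library and 3 in a diet library. Of these 7, 4 rose in the combination against control (Gfra2, Ngfr, Ntrk2 and Alk) and none fell, where 32.2% of all 12095 genes tested were called in either direction. The median log2 change of the 7 was 1.99, and that of all genes 0.02. With DFMO against control 2 of 7 rose (Gfra2 and Ntrk2), beside 18.1% of all genes, and the median of the 7 was 0.42. On the diet alone 0 of 7 were called, beside 0.00% of all genes. In that comparison edgeR called 0 genes, with 1312 at an unadjusted p under 0.05, while DESeq2 called 109 genes and limma 46, none of them a receptor examined here. The combination against DFMO called 1 of 7 (Ngfr, higher), beside 3.22% of all genes. Against the diet alone, 5 of 7 rose in the combination (Gfra1, Gfra2, Ngfr, Ntrk2 and Alk), beside 28.8% of all genes, with a median of 2.09 over the 7. The interaction of diet and DFMO called 0 of 7 by edgeR, beside 0.372% of all genes, and 1 of the 7 had an unadjusted p under 0.05. DESeq2 and limma also called 0 of 7 there. The comparisons against control share the control tumors, and those of the combination share the combination tumors, so their calls are not independent of each other.

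Gfra2, which encodes the neurturin co-receptor, rose in both groups given DFMO. Its footprints were 27.5, 32.2, 46.8, 34.8 and 28.4 CPM in combination tumors, 18.8, 13.1, 11.5, 44.5 and 23.0 CPM with DFMO, 4.80, 6.85, 3.24, 5.32 and 4.23 CPM on the diet, and 5.02, 3.02, 4.55, 4.03 and 4.14 CPM in controls. Every tumor with DFMO, on either diet, was above every tumor without it. The log2 change was 3.07 ± 0.34 in the combination against control (8.37-fold, adjusted p = 4.65e-06), 2.46 ± 0.34 with DFMO against control (5.49-fold, adjusted p = 2.10e-04) and 2.77 ± 0.31 in the combination against the diet (adjusted p = 8.99e-06). The diet alone gave 0.29 ± 0.38 (adjusted p = 0.850). Between the combination and DFMO alone the groups overlapped through D5823, the highest DFMO tumor, and the change of 0.61 ± 0.26 missed the threshold (adjusted p = 0.219). Without D5823 it was 1.02 and passed it (adjusted p = 0.00958).

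Gfra1, the co-receptor for GDNF, was the lowest receptor of the set and moved in steps from mouse to mouse. Its footprints were 0.143, 2.17, 2.37, 2.56 and 2.17 CPM in the combination, 4.14, 2.41, 0.384, 0.263 and 0.452 CPM with DFMO, 0, 0.605, 0, 0 and 0 CPM on the diet, and 0.913, 0.216, 0, 0 and 0.591 CPM in controls. In the combination 4 of 5 tumors, and with DFMO 2 of 5, stood above 2 CPM, and no tumor without DFMO reached 1 CPM. These levels rest on 77 footprints in all in the combination, 64 with DFMO, 3 on the diet and 5 in controls. Gfra1 rose in the combination against the diet (3.78 ± 1.05, adjusted p = 0.0103). Against control the change was 2.47 ± 1.00 in the combination (adjusted p = 0.0617) and 2.19 ± 1.02 with DFMO (adjusted p = 0.137), and neither passed. Without PD5732, the combination tumor near 0, the combination against control passed (2.76, adjusted p = 0.0222). It also did so without D5747 (2.47, adjusted p = 0.0341).

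Gfra3, the artemin co-receptor, was well translated in every tumor. Its footprints were 12.1, 9.38, 15.0, 10.7 and 17.9 CPM in the combination, 30.7, 30.5, 12.9, 20.2 and 13.7 CPM with DFMO, 38.7, 22.4, 21.04, 21.2 and 13.0 CPM on the diet, and 34.7, 22.4, 46.3, 17.5 and 8.27 CPM in controls. The 4 groups overlapped, and the control tumors alone spanned 5.601-fold. The change in the combination against control was -0.97 ± 0.39 and missed the threshold (adjusted p = 0.0611). It passed without control C5840, the lowest control (-1.21, adjusted p = 0.0135), without P5702 (-0.97, adjusted p = 0.0481) and in DESeq2 (-0.98, adjusted p = 0.0283). With DFMO and on the diet alone the changes were -0.23 ± 0.38 and -0.14 ± 0.38 (adjusted p = 0.706 and 0.941).

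Ntrk2, the BDNF receptor gene, followed a pattern like that of Gfra1 at a higher level. Its footprints were 6.42, 13.4, 15.9, 31.3 and 20.3 CPM in the combination, 41.0, 20.5, 7.43, 5.12 and 8.02 CPM with DFMO, 3.90, 5.24, 2.59, 4.39 and 3.79 CPM on the diet, and 3.65, 4.74, 3.31, 4.03 and 5.61 CPM in controls. Combination tumors were all above the controls, whereas D5823 lay within the control range. Ntrk2 rose in the combination against control (1.99 ± 0.56, 3.97-fold, adjusted p = 0.0115), with DFMO against control (1.92 ± 0.56, 3.78-fold, adjusted p = 0.0248) and in the combination against the diet (2.09 ± 0.53, adjusted p = 0.00721). Without D5747 the change with DFMO was 1.20 and no longer passed (adjusted p = 0.0732), and leaving out control C5781 or C5812 also ended it (adjusted p = 0.0544 and 0.0520). The combination and DFMO alone did not differ detectably (0.07 ± 0.46, adjusted p = 0.962, with 2 SE either side spanning -0.84 to 0.99).

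Footprints of markers of Schwann cells and glia, which also express neurotrophin receptors, were highest in the 2 DFMO tumors with the most Ntrk2. The summed footprints of 6 such markers (Sox10, S100b, Foxd3, Erbb3, Fabp7 and Cdh19) were 67.7 CPM in D5747 and 32.2 CPM in D5802, the DFMO tumors highest in Ntrk2 and Gfra1. They were 5.51 to 11.2 CPM in the combination, 5.91 to 10.3 CPM in the other 3 DFMO tumors, 1.29 to 6.70 CPM on the diet and 2.07 to 4.11 CPM in controls. Of the 6 markers 2 passed the filter in footprints. With DFMO both rose (Fabp7 and Erbb3), beside 18.1% of all genes called, while in the combination 1 rose (Erbb3), beside 32.2%. S100b had no footprint in any control. In RNA all 6 markers were tested. With DFMO 5 rose and S100b fell, beside 39.5% of all genes called. In the combination 2 rose (Erbb3 and Sox10) and S100b fell, beside 40.8%. S100b RNA averaged 0.362 CPM in the combination and 0.680 CPM with DFMO, against 4.94 CPM in controls, with log2 changes of -3.64 ± 0.83 (edgeR, adjusted p = 0.00242) and -2.75 ± 0.80 (adjusted p = 0.0109). The RNA sum of the 6 was 2.79 to 6.31 CPM in the combination, 32.1 to 97.6 CPM with DFMO, 0.805 to 10.7 CPM on the diet and 1.82 to 15.6 CPM in controls, and Foxd3 and Cdh19 were at 0 in every control. The RNA sums of the combination thus lay within the control range. Fabp7 RNA averaged 53.7 CPM with DFMO and S100b RNA 4.94 CPM in controls, so the sums of these 2 groups rested largely on a single gene each. The part of these cells in the Ntrk2 and Gfra1 values was not tested. Without the footprints of D5747 and PD5732, the count of receptors called with DFMO against control was still 2 (Gfra2, and Ntrk2 with 1.20, adjusted p = 0.0326), so the call of Ntrk2 with DFMO lay close to its limit.

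Ntrk3 was low and even. Its footprints ran from 3.62 to 11.3 CPM in the combination, 3.54 to 7.40 CPM with DFMO, 6.45 to 9.91 CPM on the diet and 3.20 to 7.76 CPM in controls. No comparison called it. The largest change against control, 0.57 ± 0.29 on the diet, had an adjusted p of 0.489, and the range of 2 SE around the combination against control was -0.19 to 0.95.

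Ngfr, which encodes the p75 receptor, rose in the combination against each of the other 3 groups. Its footprints were 1.85, 8.99, 10.3, 6.03 and 2.17 CPM in the combination, 0.689, 2.96, 0.641, 1.05 and 2.03 CPM with DFMO, 1.50, 1.81, 0, 0.798 and 0.729 CPM on the diet, and 0.913, 0.647, 1.65, 2.35 and 0 CPM in controls. PD5736, PD5746 and PD5805 were far above the other tumors, and PD5732 and PD5825 lay among the highest of the other groups. The change was 2.48 ± 0.66 against control (5.57-fold, adjusted p = 0.00672), 2.59 ± 0.61 against the diet (adjusted p = 0.00363) and 2.06 ± 0.56 against DFMO alone (adjusted p = 0.0432). That last call was close to its limit: leaving out any of 14 of the 20 mice ended it, with adjusted p up to 0.123, while the change stayed between 1.76 and 2.41. With DFMO against control Ngfr changed by 0.42 ± 0.72 (adjusted p = 0.724). Whether the effect of DFMO on Ngfr differed between the 2 diets was not settled, with an interaction of 2.17 ± 0.98 on the log2 scale (adjusted p = 0.347).

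Alk had the most footprints and the smallest change that passed. Its footprints were 61.7, 92.4, 120.2, 80.7 and 70.7 CPM in the combination, 48.9, 76.1, 74.6, 57.0 and 76.6 CPM with DFMO, 50.4, 55.4, 53.7, 66.4 and 74.9 CPM on the diet, and 68.5, 67.0, 60.8, 58.1 and 55.2 CPM in controls. Of the 5 combination tumors 4 were above every control, and PD5732 was not. Alk rose by 0.46 ± 0.16 against control (1.38-fold, adjusted p = 0.0313) and by 0.50 ± 0.16 against the diet (adjusted p = 0.0221). Neither call stood without PD5746, the highest tumor, where the changes were 0.31 (adjusted p = 0.129) and 0.34 (adjusted p = 0.0958). The call against control was also lost without C5781, C5812, C5840 or PD5736, and that against the diet without P5702, P5705 or P5784.

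**Figure D2:**
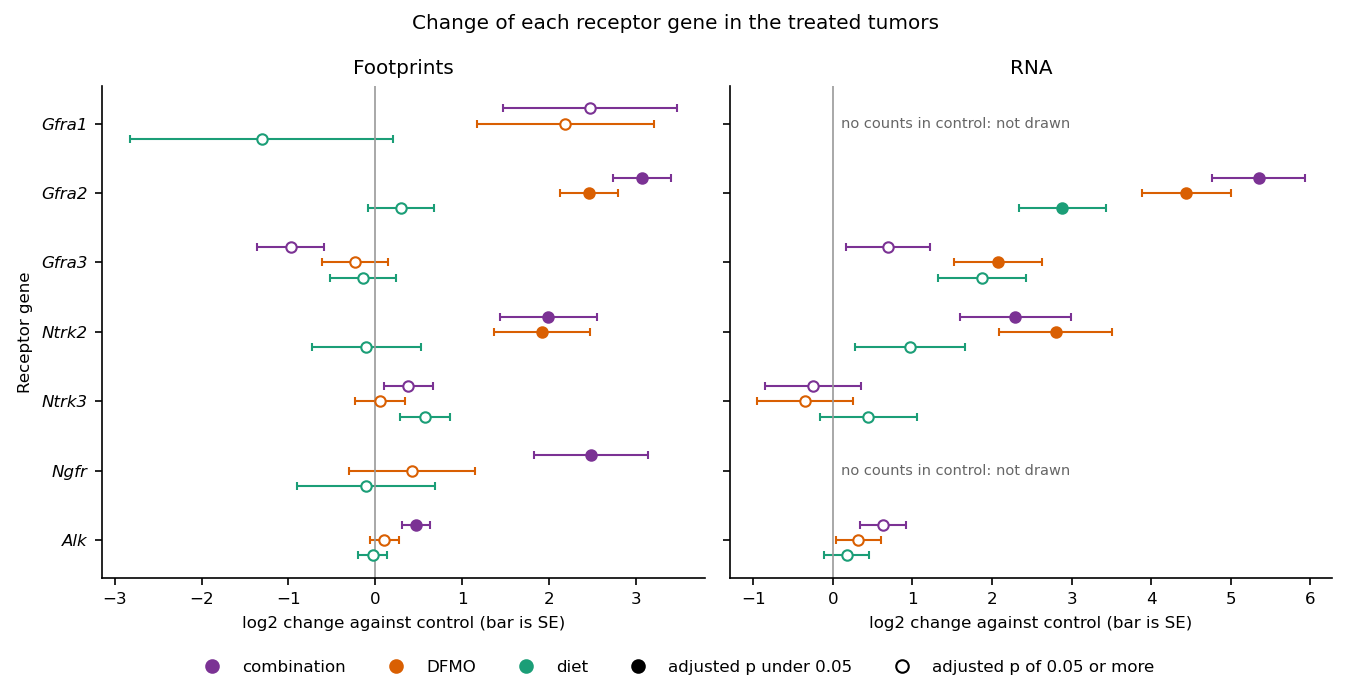
The log2 change of each receptor against control in footprints (left) and RNA (right), with 1 SE as the bar, for the combination, DFMO and the diet from top to bottom within each gene; filled points have an adjusted p under 0.05. Gfra2 has the largest footprint change within the combination (3.07) and within DFMO (2.46), and Gfra1 and Ngfr are not drawn for RNA because all 4 control libraries had 0 counts.

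In RNA, all 7 receptors again passed the filter, but Gfra1 and Ngfr did so only through libraries with DFMO. Gfra1 had 0 counts in every library without DFMO, and Ngfr had 0 in controls and at most 5 in a diet library. Against control the only possible call of Gfra1 and Ngfr was thus a rise, as was that of Gfra1 against the diet. The combination against control called 4 of 7, all higher (Gfra1, Gfra2, Ngfr and Ntrk2), beside 40.8% of all 14280 genes tested. DFMO against control called 4 of 7, all higher (Gfra1, Gfra2, Gfra3 and Ntrk2), beside 39.5% of all genes. On the diet 1 of 7 was called (Gfra2, higher), beside 3.40%. The combination against DFMO called 0 of 7 by edgeR, beside 5.13%, with 3 of the 7 at an unadjusted p under 0.05 and 1 (Ngfr) called by DESeq2. Against the diet the combination called 3 of 7, all higher (Gfra1, Gfra2 and Ngfr), beside 17.7%. The interaction called 1 of 7 (Gfra3, negative), beside 5.94%. The median log2 change of the 7 was 2.29 in the combination and 2.80 with DFMO. On the diet the median was 1.42 without Gfra1, which had 0 counts there and in controls and so no estimable change. The medians of all genes were 0.31, 0.28 and 0.23 in the same order, rather than 0. With RLE scaling in place of TMM these medians of all genes became 0.48, 0.41 and 0.28, and no receptor changed direction against control. Markers of neuroblasts and of mature neurons moved in RNA as well. Of the 7 neuroblast markers, 3 rose in the combination (Th, Phox2a and Dbh) and 5 with DFMO, and none fell, with medians of 0.39 and 1.18. Their summed RNA was 1217 to 1864 CPM in the combination, 1106 to 1477 CPM with DFMO, 729 to 1000.4 CPM on the diet and 323 to 832 CPM in controls. Of 8 mature neuron markers, 6 rose and 1 fell (Stmn2) in the combination, with a median of 2.01, and with DFMO 5 rose and none fell, with a median of 1.72. On the diet 1 rose (Scg2). The part of these in the receptor RNA values was not tested.

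**Figure D3:**
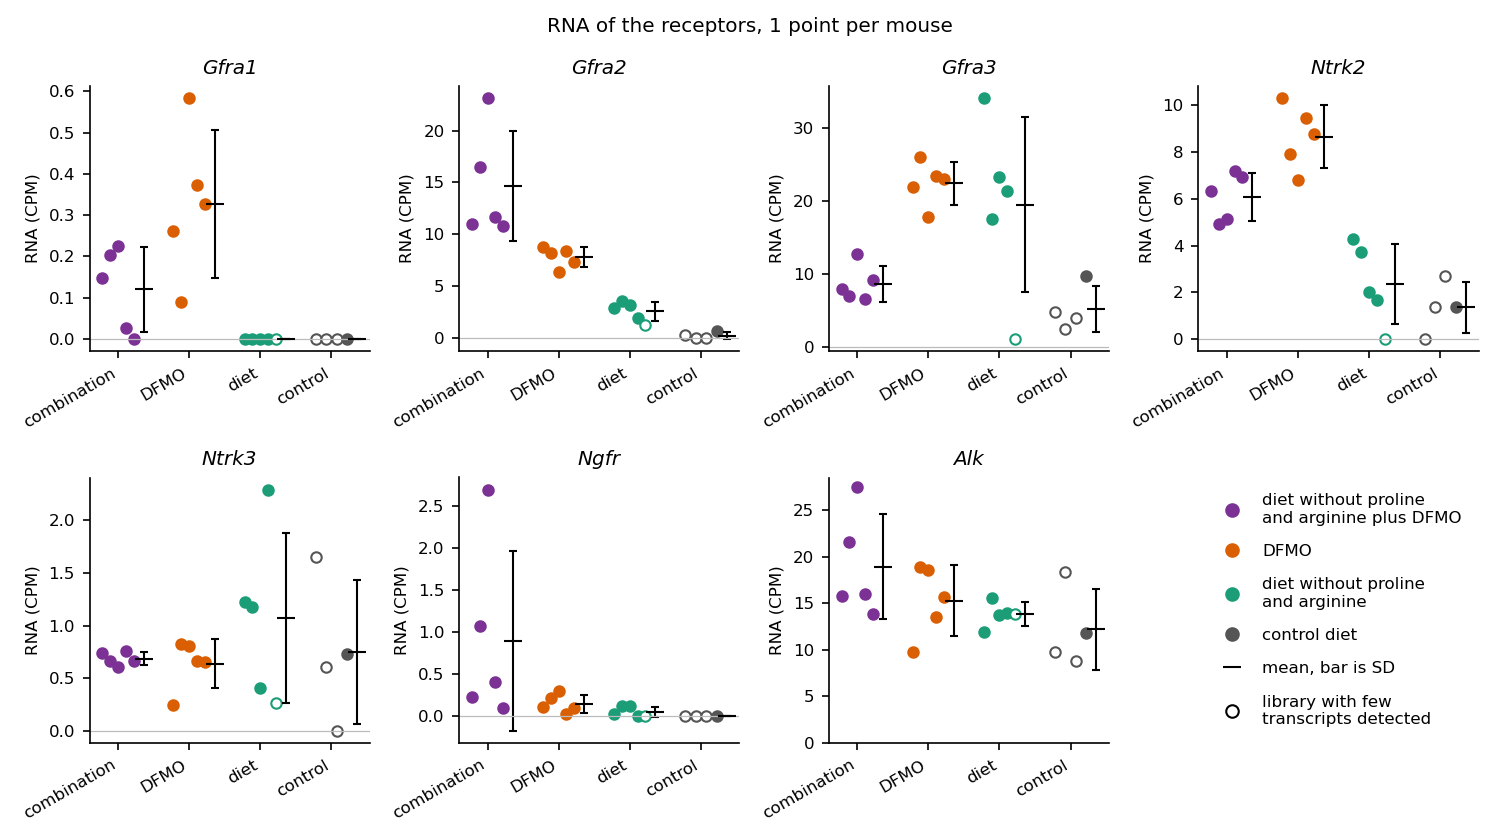
RNA of each receptor in CPM on a linear axis, 1 point per mouse, with groups from left to right as combination, DFMO, diet and control, and mean and SD in black; open points are the 4 libraries with under 14000 transcripts detected. Of the 4 control points 3 are open, and the filled control point, C5812, has 0.697 CPM of Gfra2, below the lowest combination (10.8 CPM), DFMO (6.35 CPM) and diet (1.32 CPM) values.

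Gfra2 RNA was 11.04, 16.5, 23.1, 11.7 and 10.8 CPM in the combination, 8.77, 8.19, 6.35, 8.41 and 7.33 CPM with DFMO, 2.92, 3.61, 3.22, 1.93 and 1.32 CPM on the diet, and 0.331, 0, 0 and 0.697 CPM in the 4 controls. None of these 4 groups overlapped another. The change was 5.35 ± 0.58 in the combination against control (adjusted p = 1.04e-05), 4.45 ± 0.56 with DFMO (adjusted p = 5.10e-05), 2.89 ± 0.55 on the diet (adjusted p = 0.0237) and 2.47 ± 0.43 in the combination against the diet (adjusted p = 6.15e-04). Leaving out the 4 RNA libraries of low complexity left a single control, C5812, which such a fit assumes to vary like the other groups. The diet call ended there (2.06, adjusted p = 0.0966), whereas the combination and DFMO calls stood and the combination also exceeded DFMO alone (0.89, adjusted p = 0.00734). Leaving out the 3 unmatched libraries also ended the diet call, at a change that was not smaller (2.92, adjusted p = 0.0953). So did leaving out C5696 (2.86, adjusted p = 0.0569) or P5784 (2.81, adjusted p = 0.0708).

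Gfra1 RNA was 0.147, 0.203, 0.226, 0.0270 and 0 CPM in the combination and 0.263, 0.0892, 0.583, 0.373 and 0.326 CPM with DFMO, with 0 counts in all 5 diet and all 4 control libraries. The presence of reads thus followed DFMO, with 9 of 10 treated and 0 of 9 other libraries. Set against a floor of 3 counts over the group, pooled Gfra1 reads were at least 2.80-fold higher in the combination than in controls (27 and 0 counts). With DFMO they were at least 6.51-fold higher than in controls (82 and 0 counts). Against the diet those of the combination were at least 6.99-fold higher. These bounds pool the reads of a group and leave out the spread between mice. The edgeR calls had adjusted p of 0.0453, 0.0107 and 0.0189, and those against control were lost without the 4 low-complexity libraries (adjusted p = 0.208 and 0.0935), with 1 control library left. The fitted log2 changes, which depend on the prior count because the controls are at 0, were not smaller there, at 5.47 in the combination and 6.82 with DFMO, beside 5.21 and 6.56 with all libraries. The call of the combination against control was also lost in DESeq2 (adjusted p = 0.0552) and in 7 of the 15 fits with a mouse left out that tested Gfra1, namely without C5696, C5778, C5781, C5812, PD5732, PD5736 or PD5746 (adjusted p up to 0.114). The call against the diet was lost in limma on log2 RPKM (adjusted p = 0.0815). Without the 3 unmatched libraries Gfra1 was not tested in RNA, so its calls ended there.

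Ngfr RNA was 0.221, 1.06, 2.69, 0.406 and 0.0997 CPM in the combination, 0.108, 0.214, 0.292, 0.0178 and 0.1003 CPM with DFMO and 0.0292, 0.113, 0.118, 0 and 0 CPM on the diet, with 0 counts in the 4 controls. PD5736 and PD5746 were the highest, as in footprints. By the same floor, the pooled reads of the combination were at least 22.0-fold above controls (212 and 0 counts), with 143 of the 212 in PD5746. The edgeR call of the combination against control had an adjusted p of 0.00380. The combination was 3.74 ± 0.95 above the diet on the log2 scale (adjusted p = 0.0118). With the low-complexity libraries left out, the call against control ended (edgeR, adjusted p = 0.0649), while the combination passed against DFMO alone (2.63, adjusted p = 0.0196). With all libraries that change was 2.62 (adjusted p = 0.0811). DFMO against control was not called by edgeR (adjusted p = 0.0639) and was called by DESeq2 (adjusted p = 0.0391).

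Between mice, Ntrk2 RNA varied less than its footprints in both groups with DFMO and more in both groups without it. The coefficient of variation in RNA was 16.8% in the combination, 15.6% with DFMO, 73.2% on the diet and 80.7% in controls, where that of footprints was 52.9, 91.3, 24.3 and 21.6% in the same order. Ntrk2 RNA was 6.33, 4.92, 5.12, 7.17 and 6.91 CPM in the combination, 10.3, 7.92, 6.80, 9.44 and 8.78 CPM with DFMO, 4.29, 3.72, 2.01, 1.67 and 0 CPM on the diet, and 0, 1.38, 2.68 and 1.36 CPM in controls. Both groups with DFMO lay above both groups without it. The change was 2.29 ± 0.70 in the combination (adjusted p = 0.0142) and 2.80 ± 0.71 with DFMO (adjusted p = 0.00494) against control. Without the 3 unmatched libraries the first was 2.24 (adjusted p = 0.0505). The combination against the diet missed the threshold with all libraries (1.32, adjusted p = 0.123) and passed without the low-complexity libraries (1.04, adjusted p = 0.00354).

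Gfra3 RNA was 7.87, 6.92, 12.7, 6.54 and 9.14 CPM in the combination, 22.0, 26.0, 17.9, 23.4 and 23.0 CPM with DFMO, 34.2, 17.5, 23.3, 21.4 and 1.05 CPM on the diet, and 4.80, 2.50, 3.89 and 9.66 CPM in controls. The combination and the controls overlapped, and DFMO lay above both. The lone low diet value, P5828, is a low-complexity library. Gfra3 rose with DFMO against control (2.07 ± 0.55, adjusted p = 0.00666), and the interaction of diet and DFMO was negative (-3.25 ± 0.74, adjusted p = 0.0160). The interaction was lost without the 3 unmatched libraries (-3.18, adjusted p = 0.148) and in limma on log2 RPKM (adjusted p = 0.0889), and the DFMO call without all 7 doubted libraries (1.19, adjusted p = 0.128). Without the low-complexity libraries, Gfra3 was lower in the combination than with DFMO alone (-1.39, adjusted p = 1.05e-04) and than on the diet (-1.49, adjusted p = 4.89e-05). With all libraries these changes were -1.38 ± 0.49 (adjusted p = 0.127) and -1.18 ± 0.49 (adjusted p = 0.0996).

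Ntrk3 and Alk were not called by edgeR in RNA in any comparison with all libraries. Ntrk3 RNA stayed at or below 2.29 CPM in every library. Alk RNA was 13.8 to 27.5 CPM in the combination, 9.71 to 18.9 CPM with DFMO, 11.9 to 15.6 CPM on the diet and 8.76 to 18.3 CPM in controls, and its change of 0.63 ± 0.28 in the combination against control missed the threshold (adjusted p = 0.0793). It passed with RLE scaling (0.79, adjusted p = 0.0273), in DESeq2 (0.79, adjusted p = 0.00987) in limma on log2 RPKM (1.51, adjusted p = 0.00713) and in edgeR without C5778 (0.91, adjusted p = 0.0290). With DFMO against control the change of Alk was 0.32 by edgeR (adjusted p = 0.377), and limma on log2 RPKM called it (1.30, adjusted p = 0.0134).

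Efficiency, the change in footprints relative to the change in RNA, was tested over all 39 libraries. The combination against control called 1 of 7 receptors (Gfra2, lower), beside 22.0% of all 13988 genes tested. DFMO against control called 2 of 7 (Gfra2 and Gfra3, lower), beside 26.0%, and the diet called 1 of 7 (Gfra2, lower), beside 4.26%. The combination against DFMO and against the diet called 0 of 7 each by edgeR, beside 0.0214% and 0.786%, with 0 of 7 at an unadjusted p under 0.05, and DESeq2 and limma called 0 of 7 as well. For Gfra2 the efficiency change was -2.21 ± 0.60 in the combination (adjusted p = 0.00951), -1.94 ± 0.60 with DFMO (adjusted p = 0.0168) and -2.58 ± 0.62 on the diet (adjusted p = 0.0213). For Gfra3 it was -2.34 ± 0.66 with DFMO (adjusted p = 0.00925). All genes together had medians of -0.26, -0.28 and -0.30 in the 3 comparisons against control.

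The control tumors stood apart in these ratios. The log2 ratio of Gfra2 footprints to RNA was 0.97 to 1.58 in the combination, 0.71 to 2.41 with DFMO and 0.12 to 1.73 on the diet, against 3.79, 5.90, 6.45 and 2.53 in C5696, C5778, C5781 and C5812. C5778 and C5781 had no Gfra2 read in RNA. For Gfra3 the ratio was 0.27 to 0.99 in the combination, -0.72 to 0.50 with DFMO and, without P5828, -0.13 to 0.37 on the diet, against 2.85, 3.16, 3.56 and 0.87 in the same controls. P5828 had 3.58. The 4 low-complexity libraries thus held the highest Gfra3 ratios, and without them 0 of 7 receptors were called in any of the 3 comparisons against control by edgeR (Gfra2 in the combination -1.25, adjusted p = 0.276). With the mouse as a replicate block over the 38 libraries of mice with both assays, Gfra2 on the diet was no longer called (-2.82, adjusted p = 0.0628), and Gfra3 in the combination was (-1.97, adjusted p = 0.0228).

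**Figure D4:**
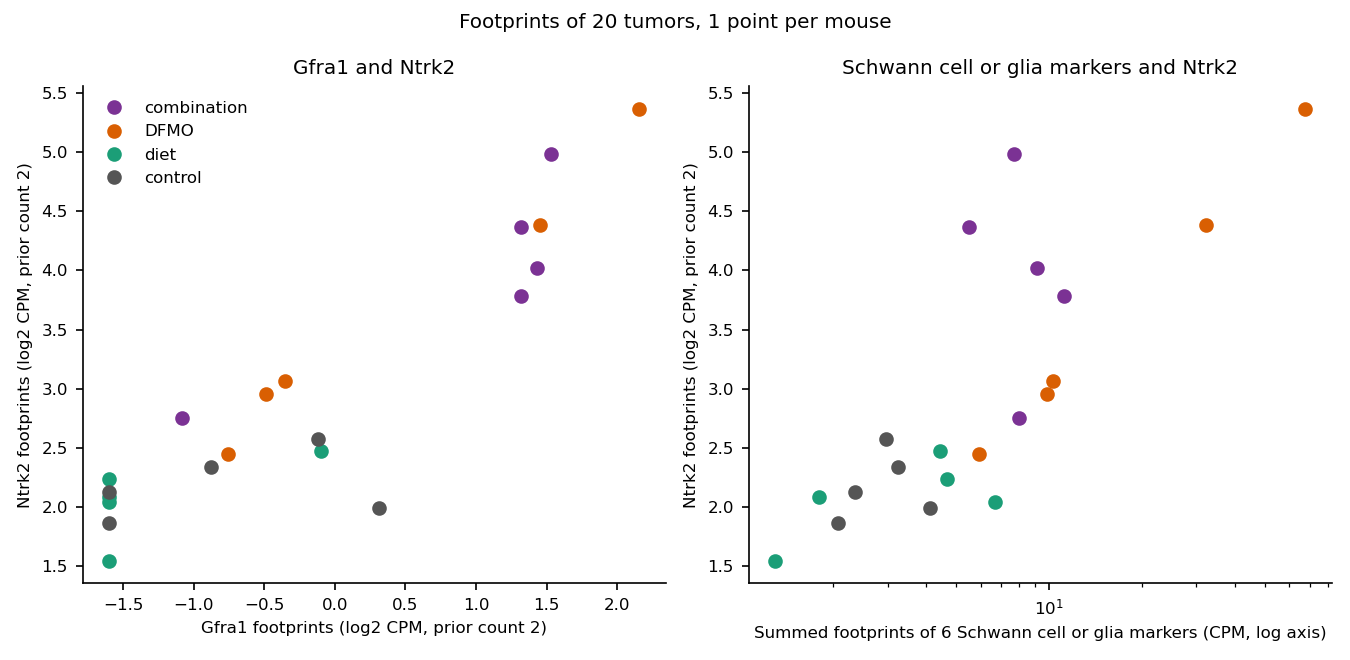
Footprints of 20 tumors, 1 point per mouse, coloured by group: Ntrk2 against Gfra1 in log2 CPM (left), and Ntrk2 in log2 CPM against the summed CPM of 6 Schwann cell or glia markers on a log axis (right). Ntrk2 and Gfra1 run together (r = 0.909), and the DFMO tumors D5747 and D5802, at 67.7 and 32.2 CPM of glial markers, are the high points of the DFMO group in both panels.

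Among themselves, the receptors did not move as a single block. Over the 20 footprint libraries the closest pair was Gfra1 and Ntrk2, with a Pearson correlation of log2 CPM of 0.909, and 0.834 after each group was centred on its own mean. The values come from the same libraries and share their depth, and a large part of the pooled correlation of other pairs lay between groups. Gfra2 and Ntrk2 had 0.706 pooled and -0.151 within groups, and Gfra2 and Gfra1 had 0.642 and 0.0209. Ngfr and Alk had 0.690 pooled and 0.470 within groups. Gfra3 had a negative correlation with every other receptor when pooled, from -0.0648 with Ntrk3 to -0.414 with Alk. Within groups 4 of these 6 correlations were positive, with Ngfr (0.329), Gfra1 (0.190), Ntrk2 (0.181) and Gfra2 (0.0990), and those with Ntrk3 and Alk were -0.0368 and -0.175. The Schwann cell and glia sum correlated with Ntrk2 at 0.796 and Gfra1 at 0.719, and the endothelial sum at -0.809 and -0.751. In the same order, the neuroblast sum had 0.615 and 0.663, and the mature neuron sum 0.551 and 0.565. The macrophage sum had -0.590 and -0.452, the fibroblast or pericyte sum -0.268 and -0.351, and library depth 0.460 and 0.312. The adrenal cortex, kidney and pancreas sums lay between -0.0908 and 0.256. These correlations with sums and depth were pooled over groups and not taken within groups.

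The 250 bases upstream of the start of Gfra1 and Ntrk2, the pair that ran together, are shown with those of Ngfr, from the RefSeq promoter table on GRCm38.p6, which held 4 of the 8 genes (Gfra1, Ntrk2, Ngfr and Alk). These starts differ from those of the counted transcripts for Ntrk2 and Ngfr. The Ntrk2 window ends at base 58806568, and the counted transcript begins at 58807697. The Ngfr window reaches down to 95587699, inside the counted transcript, which begins at 95587735 on the minus strand. Capitals mark CAGCTG, the E-box of neuronal basic helix-loop-helix factors, and GGGCGG, a GC box, each searched on both strands.
Gfra1, chr19:58455399-58455648, minus strand: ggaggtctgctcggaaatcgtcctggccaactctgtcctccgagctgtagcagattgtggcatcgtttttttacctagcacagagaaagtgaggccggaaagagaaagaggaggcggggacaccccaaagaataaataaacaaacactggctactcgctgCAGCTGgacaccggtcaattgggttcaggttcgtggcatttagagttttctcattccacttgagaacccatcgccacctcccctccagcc
Ntrk2, chr13:58806319-58806568, plus strand: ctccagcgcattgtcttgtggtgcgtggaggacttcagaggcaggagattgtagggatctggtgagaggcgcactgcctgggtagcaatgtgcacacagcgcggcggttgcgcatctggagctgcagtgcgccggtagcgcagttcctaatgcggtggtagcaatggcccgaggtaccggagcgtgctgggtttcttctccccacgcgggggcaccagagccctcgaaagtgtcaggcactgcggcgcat
Ngfr, chr11:95587699-95587948, minus strand: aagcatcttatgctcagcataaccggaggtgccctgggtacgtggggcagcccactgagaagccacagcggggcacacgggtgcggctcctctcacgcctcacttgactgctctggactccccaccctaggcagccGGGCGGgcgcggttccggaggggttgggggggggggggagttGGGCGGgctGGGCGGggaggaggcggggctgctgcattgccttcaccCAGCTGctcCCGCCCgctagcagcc

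CAGCTG occurred once each upstream of Gfra1 and Ngfr and did not occur upstream of Ntrk2, and 13.0% of the 32851 promoters of this length in the table hold it. GGGCGG occurred 4 times upstream of Ngfr, and 32.7% of promoters hold it at least once. CACGTG, the E-box bound by MYC and MAX (6.02% of promoters), and TGACGTCA, the cyclic AMP response element (1.55%), occurred in none of the 4 windows. Gfra1 and Ntrk2 thus had none of these 4 motifs in common there.

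The genes of the same pathways were read through lists. Of 6 GDNF family ligands and further co-receptors, 4 had a row and 1 (Nrtn) passed the filter, in RNA only. Nrtn, which encodes neurturin, the ligand of GFRA2, fell in the combination (0.0966 ± 0.0841 CPM, SD, n = 5) and with DFMO (0.0701 ± 0.0510 CPM, n = 5), against 2.00 ± 2.45 CPM in controls (n = 4), with log2 changes of -4.33 ± 0.95 (adjusted p = 0.00188) and -4.81 ± 0.97 (adjusted p = 0.00117). Its control values ran from 0.116 to 5.598 CPM, and the footprint libraries held at most 4 Nrtn reads in any group. The 4 control libraries include the 3 of low complexity, and the part of these in the Nrtn call was not tested. Gdnf and Artn had 0 RNA counts in controls and at most 3 in any other group.

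Among 11 neurotrophins and binding partners, 8 were tested in footprints. In the combination against control 3 of 8 rose and 0 fell, beside 32.2% of all genes called. Bdnf, the ligand of NTRK2, had 9.77 ± 2.14 CPM in the combination and 8.51 ± 3.38 CPM with DFMO, against 3.58 ± 1.29 CPM in controls (SD, n = 5 each), a change of 1.48 ± 0.35 (adjusted p = 0.00261) and 1.27 ± 0.35 (adjusted p = 0.0157). Sorcs2, which encodes a sortilin-type partner of p75, rose by 1.85 ± 0.46 (adjusted p = 0.00468) in the combination and by 1.41 ± 0.46 (adjusted p = 0.0392) with DFMO. Kidins220, a scaffold at Trk receptors, rose by 0.51 ± 0.17 (adjusted p = 0.0293) and by 0.57 ± 0.17 (adjusted p = 0.0279). With DFMO 3 of 8 rose and 1 fell (Bex1), beside 18.1% of all genes. On the diet 0 of 8 were called by edgeR. The median change of the 8 was 0.19 in the combination, 0.20 with DFMO and 0.02 on the diet, beside 0.02, 0.02 and 0.00 for all genes. In RNA the combination called 3 of 8 higher (Sorcs2, Kidins220 and Bdnf) and 1 lower (Nradd), beside 40.8% of all genes. The neurotrophin genes Ntf3 and Ntf5 had at most 10 and 0 footprints in any group.

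The ALK ligand genes were almost silent. Alkal1 had 0 RNA counts in every group and Alkal2 at most 14. Ltk, the receptor related to ALK, was the only gene of that list to pass the filter, in RNA, and it rose with DFMO (0.825 ± 0.304 CPM, n = 5) against control (0.0726 ± 0.145 CPM, n = 4), by 2.73 ± 1.00 (adjusted p = 0.0356).

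Of 24 adaptors and docking proteins, 19 were tested in footprints. In the combination against control 4 rose (Irs2, Sos1, Gab2 and Frs2) and 2 fell (Plcg1 and Sh2b2), so 6 of 19 were called beside 32.2% of all genes, with a median of -0.01 over the 19. Irs2, an insulin receptor substrate, had 24.8 ± 6.66 CPM in the combination, 13.5 ± 5.25 CPM with DFMO, 10.0 ± 0.902 CPM on the diet and 10.4 ± 2.89 CPM in controls (SD, n = 5 each), and rose by 1.28 ± 0.24 in the combination against control (adjusted p = 4.05e-04). Frs2, the docking protein that Trk receptors, RET and ALK all phosphorylate, rose by 0.70 ± 0.21 (adjusted p = 0.0152). With DFMO 3 rose (Sos1, Dok6 and Frs2) and 1 fell (Sh2b1), beside 18.1% of all genes. Dok6, a docking protein of RET, had 8.89 ± 8.09 CPM with DFMO against 1.60 ± 0.936 CPM in controls (n = 5 each, 2.37 ± 0.69, adjusted p = 0.0239). On the diet 0 of 19 were called by edgeR. In RNA 23 of the adaptor genes were tested, of which 6 rose and 1 fell in the combination, beside 40.8% of all genes called, and 10 rose and 1 fell with DFMO, beside 39.5%, against control. Dok5, a further docking protein of RET, rose in the combination (4.95 ± 0.80, adjusted p = 2.61e-04). Of 10 genes of receptor trafficking and turnover, 9 were tested, and in the combination 2 fell (Cblb and Nedd4l, ubiquitin ligases) and none rose, beside 32.2% of all genes. Cblb fell to 19.4 ± 7.79 CPM in the combination, against 36.7 ± 3.23 CPM in controls (n = 5 each), a log2 change of -0.92 ± 0.19 (adjusted p = 9.17e-04). With DFMO and on the diet 0 of these 9 were called by edgeR in footprints.

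The genes whose footprints were most like those of each receptor were taken by Pearson correlation of log2 CPM over the 20 footprint libraries, among 7357 or 7358 genes with a mean of at least 10 CPM. For Ntrk2 they were Klc1 (0.973), Snap47 (0.965) and Ddah1 (0.959), and for Gfra2 Plxna4 (0.955), Elavl4 (0.947) and Pcbp3 (0.917). For Gfra3 the highest were lower, with Unc93b1 (0.772), Slc7a2 (0.747) and Snapc2 (0.729), as for Alk with Slc38a1 (0.783), Armh3 (0.775) and Neo1 (0.763) and for Ntrk3 with Asxl2 (0.766), Lats1 (0.755) and Pkmyt1 (0.752). In the 19 RNA libraries the correlations with the same receptor differed widely. With Ntrk2 they were 0.523 for Klc1, 0.779 for Snap47 and 0.343 for Ddah1, and with Gfra2 0.668 for Plxna4, 0.777 for Elavl4 and 0.928 for Pcbp3. With Gfra3 they were 0.0888 for Unc93b1, 0.416 for Slc7a2 and 0.761 for Snapc2. With Alk they were 0.119 for Slc38a1, 0.442 for Armh3 and 0.353 for Neo1, and with Ntrk3 -0.328 for Asxl2, 0.773 for Lats1 and -0.370 for Pkmyt1. Gfra1 and Ngfr were below the level of 5 CPM set for this comparison.

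Markers of other cell types also differed between groups. Of all genes tested against control in footprints, 32.2% were called in the combination and 18.1% with DFMO. In RNA these shares were 40.8% and 39.5%. In footprints 6 of 8 macrophage markers fell both in the combination and with DFMO against control, with summed levels of 389 to 505 CPM in the combination, 460 to 532 CPM with DFMO, 479 to 669 CPM on the diet and 581 to 874 CPM in controls. Of 8 endothelial markers, 3 fell in each of the combination and DFMO. In RNA, Tie1 fell in both and Emcn fell with DFMO. Cdh5, which fell in footprints, rose in RNA in the combination (1.47 ± 0.54, edgeR, adjusted p = 0.0340). Of 8 mature neuron markers, 4 rose (Scg2, Mapt, Snap25 and Rbfox3) and 2 fell (Nefm and Nefl) in the combination, and with DFMO 3 rose and 1 fell. In RNA, Nefm rose in the combination instead (0.99 ± 0.31, adjusted p = 0.0148). Of the macrophage markers, 1 fell in RNA in the combination, and with DFMO 2 rose and 1 fell. Pancreatic markers reached 241 to 2467 CPM in the combination, against 10.1 to 51.9 CPM with DFMO, 8.16 to 53.4 CPM on the diet and 45.9 to 1486 CPM in controls. Adrenal cortex markers summed to 67.0 to 213 CPM in the combination, 3.05 to 45.4 CPM with DFMO, 4.81 to 114 CPM on the diet and 12.1 to 104 CPM in controls. Kidney markers, of a tissue where RET and GFRA1 are active in development, summed to at most 3.84 CPM in any tumor, and Pax2 and Pax8 had no footprints. The part of these in the receptor values was not tested.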

How the data were processed

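Ribosome footprints of 20 tumors and RNA of 19 were analysed. Reads were trimmed with cutadapt and aligned with HISAT2 and Bowtie2 to GRCm38, per the submitters' processing notes. Tool versions and the counter were not stated there. The authors deposited raw counts for a single transcript per gene and RPKM values, which the file values show to be the count per kilobase of coding length, scaled to the library total. Counts carry no molecular identifiers. Within an assay each library is a different mouse per the series design, and the SE includes the spread between mice.

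Counts were tested with edgeR 4.0.16 (R 4.3.3): TMM scaling, its filter on low counts, the robust quasi-likelihood F test with all 4 groups in a fit per assay, and Benjamini-Hochberg adjustment over all genes, with calls at 0.05. The SE is the absolute log2 change over the square root of F. Efficiency is the assay by group interaction over all 39 libraries. Correlations used log2 CPM with a prior count of 2. Alternatives were DESeq2 1.42.0, limma 3.58.1 on log2(RPKM + 0.1), RLE scaling, no filter, thinned footprints, libraries or mice left out, and the mouse as a replicate block. The block is the tumor extract that a mouse's footprints and RNA share, per the labels' protocols. The procedure was tested on simulated data. Python 3.11.15 read annotation and drew figures.

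Named genes were all members, list genes that passed (at most 4 per list and comparison, smallest p first), and the 3 genes most like each member. Dok5 in RNA, and genes given for low counts, were named after their values were seen. Members and lists were chosen with earlier results of these data known. Ret was not analysed here, and some markers fixed for neuroblasts and for Schwann cells are not reported here.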

Additional observations from a re-analysis of the deposited data

Results flagged for a closer look

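Of 56 groups of libraries looked at, 2 held a sample far from the others by Dixon's criterion, and chance flags about 1 in 20 groups. For Gfra1 footprints in the combination, PD5732 had 0.142577 CPM, while the other 4 tumors had 2.17 to 2.56 CPM. For Gfra1 footprints on the diet, P5705 had 0.604561 CPM and the other 4 tumors had none, a level that rests on 3 reads. A further result was picked out because the effect of DFMO differed between the diets: the interaction for Gfra3 RNA was -3.25298 on the log2 scale (edgeR, adjusted p = 0.0160). Gfra3 RNA averaged 8.64 ± 2.50 CPM in the combination against 19.5 ± 12.0 CPM on the diet (SD, n = 5 each), and 22.5 ± 2.97 CPM with DFMO (n = 5) against 5.21 ± 3.11 CPM in controls (n = 4).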

How the results depend on the processing

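Every change that passed the threshold kept its sign in each alternative run that tested it. Changes that did not pass switched sign 22 times under other settings and 37 times with a mouse left out. Of the counts of receptors called under settings other than leaving out a mouse, 93 stayed within 1.5 times the count given and 35 moved, as follows. In footprints, the count for the combination against DFMO (1) was 0 with no filter, 0 in limma, 0 with thinned footprints and 2 without the footprints of D5747 and PD5732, and that against the diet (5) was 3 with thinned footprints. In RNA, the count on the diet against control (1) was 2 with RLE scaling and 2 in DESeq2, and 0 without the low-complexity, the unmatched or all 7 of these. In the combination against control (4) it was 2 without each of these 3 sets, and for DFMO against control (4) it was 2 without all 7. The combination against DFMO (0) gave 1 in DESeq2, 3 without the low-complexity libraries and 1 without all 7, and against the diet (3) it gave 5 without either set. The interaction (1) gave 2 in DESeq2, 0 in limma and 0 without the unmatched libraries. In efficiency, all 3 counts against control were 0 without the low-complexity libraries and without all 7, and the count with DFMO (2) was 4 in limma. The diet (1) gave 2 in DESeq2 and 0 with the mouse as a replicate block, and the combination (1) gave 2 in DESeq2, 2 in limma, 2 with the replicate block and 2 in the same 38 libraries with no replicate block. Gfra1 was not tested in RNA without the 3 unmatched libraries, so it left the RNA counts there. The cause of the other moves was not tested.

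Leaving out a mouse at a time gave, in footprints, 1 to 2 receptors with DFMO against control (1 without C5781, C5812 or D5747) and 0 to 1 in the combination against DFMO. In RNA it gave 0 to 2 on the diet (0 without C5696 or P5784, 2 without C5812 or P5828) and 2 to 4 in the combination against control (2 without D5806, PD5736 or PD5746, and 3 or 4 without any other mouse). It gave 0 to 1 in the combination against DFMO (1 without P5828), 1 to 4 against the diet (1 without D5806) and 1 to 2 for the interaction (2 without C5812 or P5828). In efficiency it gave 1 to 2 with DFMO (1 without C5696), 0 to 2 on the diet and 1 to 2 in the combination. In RNA, Gfra1 and Ngfr were each tested in 15 of the 19 fits. Part of the lower RNA counts thus came from genes not tested.

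Depth limits Gfra1 and Ngfr most, with 5 and 16 footprints in all controls together, and 4 control RNA libraries, 3 of them of low complexity, limit each RNA and efficiency contrast with control.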
